A study of Caenorhabditis elegans with 4 samples.

Results

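The mitochondrial respiratory chain and the ATP synthase were followed through 21 genes of the 14463 rows of the count table. A row was taken when its name began with nuo-, sdh-, cox- or atp-, or when it was gas-1, mev-1, isp-1, cyc-1, ucr-1 or ucr-2.1. The rule used names and no measured value, although earlier results of these data were known when it was set. Sorted by complex, 7 of the genes encode subunits of complex I, 1 a subunit of complex II, 4 subunits of complex III and 5 subunits of the ATP synthase. The 4 cox- rows (cox-10, cox-11, cox-15 and cox-17) encode factors that assemble complex IV and no subunit of it, and 0 rows had a name beginning with sdh-. Of the 21 genes, 20 lie in the nucleus, and atp-6 lies on the mitochondrial genome.

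The respiratory chain passes electrons from NADH (complex I) or succinate (complex II) through ubiquinone to complex III, and from there by cytochrome c to oxygen at complex IV. Complexes I, III and IV pump protons across the inner membrane, and the ATP synthase lets them flow back through its membrane part, Fo, which turns the rotor inside the catalytic head, F1. Muscle draws much of the ATP for contraction and for calcium pumping from this pathway, and C. elegans mutants in gas-1, mev-1, isp-1 and nuo-6 are standard models of respiratory chain defects.

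The cells came from embryos at the 1.5-fold stage, about when body-wall muscle begins to contract. Per the study's methods, worms were grown on peptone-enriched plates with concentrated bacteria and synchronized by bleaching. Most embryos, not all, had reached the stage at collection. Both genotypes carried the extrachromosomal array lucEx1207, which drives YFP from the promoter of myo-3, a body-wall muscle myosin, and YFP-positive cells were isolated by FACS at about 5000 cells per library. The wild-type group had 2 libraries and no other allele. The mir-1(luc108) group had 2 libraries and carried in addition luc108, a deletion that takes out the hairpin of the muscle microRNA gene mir-1, so that what was compared is muscle with and without this microRNA. The labelled cell type rests on 1 promoter, and each library pools cells of many embryos. In such bulk samples fewer cells of a type and less RNA per cell cannot be told apart.

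RNA was measured by QuantSeq, where priming from poly(A) gives about 1 tag per mRNA near its 3′ end. Molecules were counted by unique molecular identifiers (UMIs). The wild-type libraries held 245336 and 424968 counts, and those of mir-1(luc108) 453341 and 343227. Levels are given as normalized UMI counts, in CPM (counts scaled to an equal total over the tested genes, with TMM factors). Because a tag stands for a molecule whatever the length of the mRNA, CPM was not divided by length when genes are set side by side. The defining markers of body-wall muscle were detected in all 4 libraries, and their summed level was 29842 to 32322 CPM in wild-type and 19629 to 23358 CPM in mir-1(luc108), with 10 of 10 markers lower. Neuronal markers were at 384 to 489 CPM against 480 to 627 CPM, with 4 of 4 tested markers higher, and hypodermal markers at 2054 to 2186 against 2145 to 2311, with 3 of 5 tested markers higher. Pharyngeal markers were at 243 to 456 CPM against 253 to 275, with 1 of 4 tested markers higher, intestinal markers at 89.7 to 172 against 177 in both mutant libraries, with 2 of 2 higher, and germline markers at 12.8 to 21.3 against 20.4 to 28.4, with 0 of 5 tested. Of the 8 hypodermal markers, dpy-13 and bli-1 were at or near 0, while sqt-3 was at 1372 to 1585 CPM and noah-1 at 266 to 359 CPM. The part of these marker levels in the respiratory chain values below was not tested. Levels of mir-1 itself are not analysed here, so the genotype rests on the labels.

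No respiratory chain or ATP synthase gene passed a false discovery rate of 0.05 between the genotypes, in either direction. In the 19 genes that passed the filter on low counts, 0 were called by edgeR's quasi-likelihood test, against 3 of all 5111 genes tested (0.0587%). The fitted log2 fold change, mir-1(luc108) over wild-type, was above 0 for 11 genes and below 0 for 8, and their median was 0.056. Over all genes tested, 50.3% were above 0 and 49.7% below, with a median of 0.0030. At an unadjusted edgeR p below 0.05 there were 2 of the 19, nuo-5 and atp-2, both lower, where 8.2% of all genes were at that level, 4.58% lower and 3.62% higher. The libraries of the genotypes did not overlap for 4 genes higher in mir-1(luc108) and 3 lower, against 19.5% and 18.9% of all genes (38.3% in either direction), so the 19 genes stood near the background of the whole table. DESeq2 called 0 of the genes, and 0 of the whole table, with nuo-5 alone of the genes at an unadjusted p below 0.05.

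**Figure D1:**
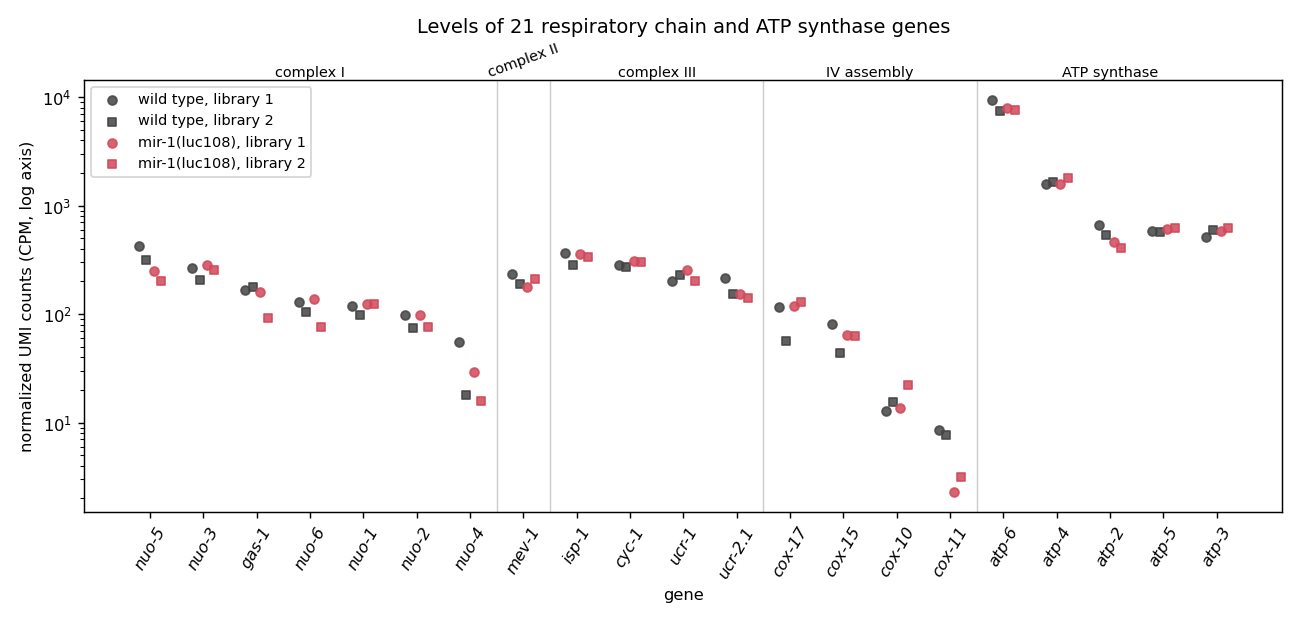
Normalized UMI counts (CPM, log axis) of the 21 genes, grouped by complex and ordered within each by the wild-type mean, with a point for each of the 4 libraries and no error bars. atp-6 lies between 7428 and 9456 CPM, cox-11 below 10, and the wild-type and mutant points intermingle for most genes.

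The levels in wild-type muscle spanned from 8.11 CPM for cox-11 to 8442 CPM for atp-6, the subunit of the proton channel that the mitochondrial genome encodes. atp-6 was followed by atp-4, at 1616 CPM, and then by atp-2, atp-5 and atp-3, whose libraries overlapped in that order. Among the genes of the name rule, all 5 of the ATP synthase stood above every gene of complexes I, II and III. Below them, nuo-5, isp-1 and cyc-1 overlapped each with the next, as did nuo-3, ucr-1, mev-1, ucr-2.1 and gas-1, and as did nuo-6, nuo-1, nuo-2, cox-17, cox-15 and nuo-4. The order of neighbours inside each of these runs therefore was not larger than the spread between the 2 wild-type libraries. Among genes of the rule, levels within a complex were far from equal for complex I, from 36.7 CPM for nuo-4 to 369 CPM for nuo-5. The 5 ATP synthase genes of the rule had a 15.3-fold range from atp-3 to the mitochondrially encoded atp-6. The 4 nuclear ones lay between 551 CPM for atp-3 and 1616 CPM for atp-4. The 4 complex III genes lay within 1.77-fold of each other. Outside the rule the order of the complexes did not always hold. In wild-type, ucr-11 of complex III was at 858 CPM, above atp-2. The ATP synthase row H28O16.1 was at 187 CPM, below nuo-5.

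Complex I takes electrons from NADH and is the entry point of the chain. Its clearest difference was in nuo-5, the counterpart of the large iron-sulphur subunit NDUFS1, which lies on chromosome V (WBcel235, 2698972 to 2706984, plus strand). nuo-5 was at 423 and 315 CPM in wild-type and at 250 and 202 CPM in mir-1(luc108). Both mutant libraries were below both wild-type libraries. The means were 369 ± 76.1 CPM (SD, n = 2) and 226 ± 33.9 CPM (SD, n = 2), a fitted difference of -37.6% that did not pass the test. Its log2 fold change was -0.68 (SE 0.23, interval at 95% confidence -1.16 to -0.20), with an unadjusted p of 0.00756 in edgeR and an adjusted p of 0.342. Leaving out each library in turn gave -0.90 to -0.46, and the adjusted p over all alternatives ran from 0.0561 to 1.00 in edgeR and DESeq2. On the opposite strand nuo-5 overlaps C24B9.3, and whether the counting used strand was not given in the sources used here, so their reads cannot be told apart. The same limit holds for nuo-6 with cutl-6, cyc-1 with C54G4.7 and cox-15 with T06D8.2.

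None of the other nuo- genes had an unadjusted edgeR p below 0.05. nuo-1, the counterpart of NDUFV1 that holds the flavin, was at 119.5 and 97.3 CPM in wild-type and at 123 in both mutant libraries, with a log2 fold change of 0.20 (SE 0.28, adjusted p = 0.925 in edgeR). nuo-3, the counterpart of NDUFA6, was at 265 and 205 CPM in wild-type and 284 and 256 CPM in mir-1(luc108), with a log2 fold change of 0.22 (SE 0.22, adjusted p = 0.876 in edgeR). Both overlap an annotated gene on the same strand. nuo-2, the counterpart of NDUFS3, was at 98.2 and 74.3 CPM in wild-type and at 97.7 and 75.8 CPM in mir-1(luc108), nearly the same pair of values. nuo-6, the counterpart of NDUFB4, was at 128 and 105 CPM in wild-type, and the mutant libraries lay on either side of these, at 139 and 75.8 CPM. nuo-4, the counterpart of NDUFA10, had the fewest counts of complex I, with 13 and 7 wild-type UMIs against 13 and 5 mutant ones. At that depth its log2 fold change of -0.49 had an SE of 0.58 and turned from -1.23 without wild-type library 2 to 0.39 without wild-type library 1, so no difference was detectable. Summed over the 7 genes, complex I was at 1255 and 994 CPM in wild-type and at 1084 and 840 CPM in mir-1(luc108). The sums overlapped, with p = 0.667 in a two-sided exact permutation test, where 2 libraries against 2 cannot go below 0.333. The median log2 fold change of complex I was -0.067, with 3 genes above 0 and 4 below. It ranged from -0.61 without mir-1(luc108) library 1 to 0.25 without wild-type library 1, and a minimum count of 30 put it at 0.0075.

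Complex II, succinate dehydrogenase, joins the TCA cycle to the chain and was represented by mev-1 alone, the membrane anchor that carries cytochrome b. mev-1 was at 234.8 and 190 CPM in wild-type and at 177 and 208 CPM in mir-1(luc108). The libraries of the genotypes overlapped, and the log2 fold change was -0.13 (SE 0.23, adjusted p = 0.946 in edgeR), at 0.027 without wild-type library 1.

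Complex III passes electrons from ubiquinol to cytochrome c. isp-1, the Rieske iron-sulphur protein, was at 367 and 284 CPM in wild-type and at 354 and 338 CPM in mir-1(luc108). cyc-1, the cytochrome c1 of the complex, was at 286 and 269 CPM in wild-type and at 309 and 300 CPM in mir-1(luc108). The cyc-1 groups did not overlap, yet the difference was small, with a log2 fold change of 0.14 (SE 0.21, adjusted p = 0.937 in edgeR). ucr-1, a core protein of the matrix side, was at 201 and 228 CPM in wild-type and at 257 and 202 CPM in mir-1(luc108). Its partner core protein ucr-2.1 was at 213 and 154 CPM in wild-type and at 155 and 142 CPM in mir-1(luc108), with a log2 fold change of -0.28 (SE 0.25, adjusted p = 0.846 in edgeR). Library 1 of wild-type alone stood high for ucr-2.1, and the log2 fold change was -0.038 without it. The summed level of the 4 genes was 1067 and 935 CPM in wild-type and 1075 and 982 CPM in mir-1(luc108), with p = 0.667 in the exact permutation test. The median log2 fold change of complex III was 0.10, and it was -0.026 without mir-1(luc108) library 1 and -0.0016 without wild-type library 2.

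The complex IV assembly factors were the scarcest group. cox-10 and cox-15 make the heme a of cytochrome c oxidase, and cox-11 and cox-17 bring it copper. cox-17, the copper chaperone, had the highest log2 fold change of the 19 genes. It lies on chromosome III (WBcel235, 190986 to 191981, plus strand), with ubc-20 ending 102 bases upstream on the same strand. cox-17 was at 115.3 and 56.3 CPM in wild-type and at 118 and 129 CPM in mir-1(luc108). Library 1 of wild-type was close to the mutant libraries, and library 2 alone stood low. The log2 fold change was 0.60 (SE 0.33, interval at 95% confidence -0.084 to 1.29, adjusted p = 0.697 in edgeR). It was 1.14 without wild-type library 1 and 0.093 without wild-type library 2, so 1 library set its size. cox-15, the heme a synthase, was at 81.1 and 43.5 CPM in wild-type, on either side of the mutant libraries at 63.6 and 63.1 CPM. Its log2 fold change was 0.11 (SE 0.36, adjusted p = 0.976 in edgeR), at 0.55 and -0.36 without wild-type library 1 and 2 respectively. cox-10, the heme o synthase, and cox-11, the copper delivery factor, did not pass the filter on low counts. cox-10 had 3 and 6 wild-type UMIs against 6 and 7 mutant ones, and the ratio of mutant to wild-type was 1.22, with a 95% counting interval of 0.481 to 3.22. cox-11 had 2 and 3 wild-type UMIs against 1 in each mutant library, and the same ratio was 0.337, with a 95% counting interval of 0.0321 to 2.06. These intervals cover counting error only, and no difference was detectable for either gene at this depth.

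**Figure D2:**
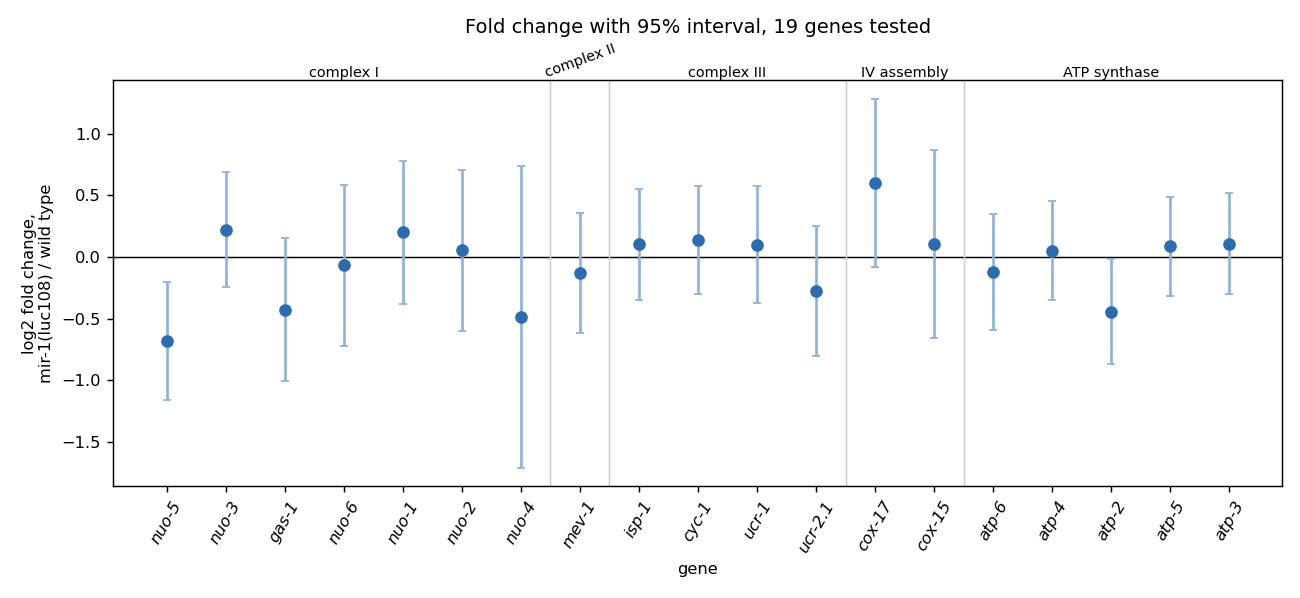
Log2 fold change, mir-1(luc108) over wild-type, of the 19 genes that passed the filter, from edgeR with 4 libraries, with bars for the 95% confidence interval. The bars of nuo-5 and atp-2 lie below 0 and those of the other 17 genes cross it, before adjustment for the number of genes tested.

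The ATP synthase genes were the most abundant of the 21. atp-2 encodes the beta subunit, which carries the catalytic sites of the F1 head, and lies on chromosome III (WBcel235, 5228417 to 5230536, plus strand). atp-2 was at 657 and 530 CPM in wild-type and at 461 and 404 CPM in mir-1(luc108). Both mutant libraries were below both wild-type libraries. The means were 594 ± 89.99 CPM (SD, n = 2) and 433 ± 40.4 CPM (SD, n = 2), and the fitted value was lower by a log2 fold change of -0.44 (SE 0.20, interval at 95% confidence -0.87 to -0.019). The unadjusted p was 0.0417 in edgeR and the adjusted p 0.584, so atp-2 did not pass the test. Leaving out each library in turn gave -0.61 to -0.28.

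In the peripheral stalk, which holds the F1 head still against the turning rotor, the intervals of atp-3, atp-4 and atp-5 included 0. So did that of its b subunit asb-2, outside the rule, with a log2 fold change of -0.13 (interval at 95% confidence -0.57 to 0.31). A difference between these genes and atp-2 was not tested. atp-3, the OSCP subunit at the top of the stalk, was at 508 and 594 CPM in wild-type and at 577 and 619 CPM in mir-1(luc108). atp-4, the coupling factor 6 subunit, was at 1575 and 1657 CPM in wild-type and at 1568 and 1790 CPM in mir-1(luc108), and it overlaps the annotated gene T05H4.11 on the same strand. atp-5, subunit d, was at 581 and 576 CPM in wild-type and at 613 and 616 CPM in mir-1(luc108). The replicates of atp-5 were very close and its groups did not overlap, while its log2 fold change was 0.087 (SE 0.19, interval at 95% confidence -0.31 to 0.49, adjusted p = 0.953 in edgeR). atp-6, subunit a of Fo, lies on the mitochondrial genome (2634 to 3235), where it overlaps the annotated gene ND1 on the same strand. It was at 9456 and 7428 CPM in wild-type and at 7973 and 7532 CPM in mir-1(luc108). Library 1 of wild-type stood high, and the log2 fold change of -0.12 (SE 0.22, adjusted p = 0.946 in edgeR) was 0.072 without it. The 4 nuclear ATP synthase genes summed to 3321 and 3358 CPM in wild-type and to 3220 and 3428 CPM in mir-1(luc108), where the mutant libraries lay on either side of wild-type.

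**Figure D3:**
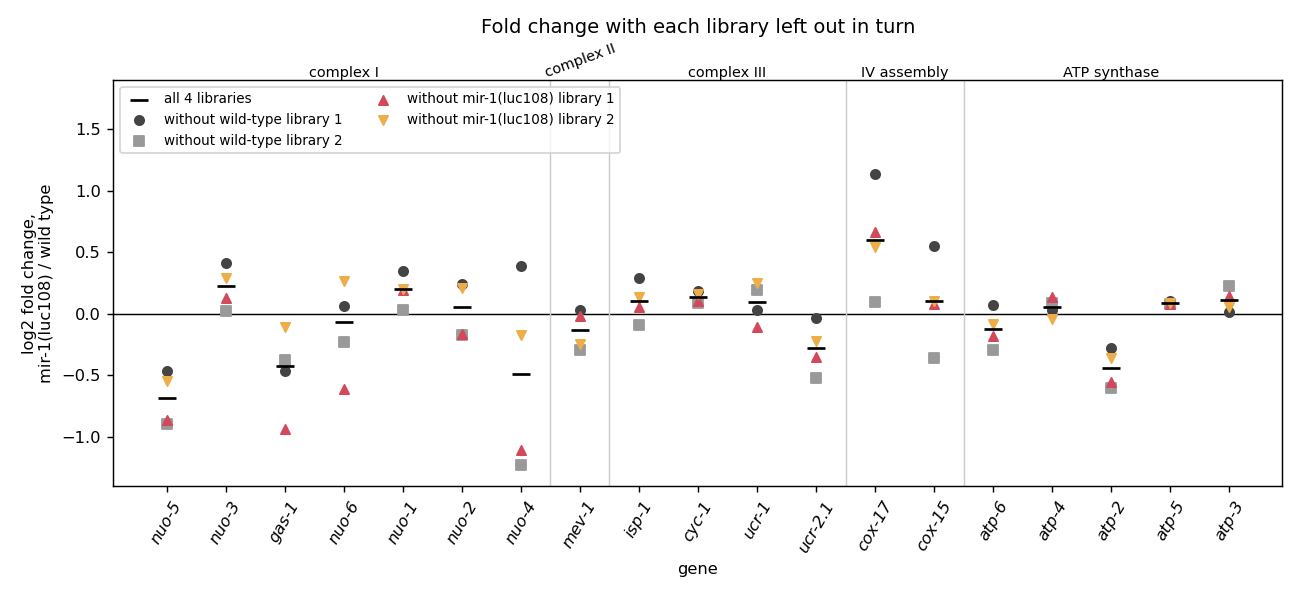
Log2 fold change, mir-1(luc108) over wild-type, of the 19 tested genes with all 4 libraries (bars) and after each library was left out (symbols), from edgeR. nuo-5 and atp-2 stay below 0 throughout, at -0.90 to -0.46 and -0.61 to -0.28, while cox-17 spans 0.093 to 1.14 and nuo-4 crosses 0.

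The direction of the small differences often followed a single library. Of the 19 genes, 10 kept the sign of their log2 fold change in every alternative tried, and 9 changed it when a library was left out. Library 1 of wild-type, the shallowest, was above a gene's own mean over the 4 libraries for 14 of the 19 genes, with a median deviation of 0.20 on the log2 scale, and library 2 of wild-type for 6 of them, with a median of -0.092. The mutant libraries had medians of 0.084 and 0.015. With wild-type library 1 left out, 15 genes were above 0 and 4 below, and with wild-type library 2 left out, 8 were above and 11 below. The 12 mitochondrially encoded genes, atp-6 among them, took 4.93% of the counts of wild-type library 1 and 3.83 to 4.15% in the other libraries. Their median log2 fold change was -0.12, with 3 above 0 and 9 below, and 0 were called.

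Several subunits stand in the table under sequence names and so fell outside the name rule. Under current gene names 8 more rows would have been included (cox-4, cox-6B, cox-6C, cox-7C, cox-14, cox-18, cox-19 and atp-1), of which 7 were tested. Of these 7, 5 were above 0 and 2 below, with a median log2 fold change of 0.090 and 0 called. The rule with current names gave 29 rows with 26 tested, 16 above 0 and 10 below, a median of 0.077 and 0 called. Together with these 7, the other nuclear respiratory chain genes on lists drawn up by complex came to 56 tested, 29 above 0 and 27 below, with a median of 0.017 and 0 called. By complex, and without the 7 renamed rows, the medians of the other genes were -0.083 for complex I (11 of 26 above 0), -0.10 for complex II (0 of 3), 0.096 for complex III with cytochrome c (4 of 5), 0.062 for complex IV assembly (3 of 5) and 0.031 for the ATP synthase (6 of 10). nduf-5, a complex I accessory subunit chosen here after its value was seen, was lower without overlap at 269 and 284 CPM in wild-type and 184 and 186 CPM in the mutant. Its log2 fold change was -0.58 (adjusted p = 0.459 in edgeR) and lay between -0.61 and -0.54 when each library was left out.

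The whole ATP synthase, laid out by the place of each subunit, comprised 15 tested rows, of which 8 were above 0 and 7 below, with a median log2 fold change of 0.029. The 3 rows whose interval did not include 0 all belong to F1, which was noticed after the values were seen. Over all genes tested, 8.2% had an unadjusted edgeR p below 0.05, the same limit as these intervals. In DESeq2 the unadjusted p was 0.134 for H28O16.1, 0.103 for atp-2 and 0.0123 for hpo-18. The alpha subunit, atp-1 (row H28O16.1), alternates with beta around the head and was at 192 and 182 CPM in wild-type against 116 and 120 CPM in mir-1(luc108). Both mutant libraries were below wild-type, as for atp-2. Its log2 fold change was -0.66 (SE 0.25, interval at 95% confidence -1.18 to -0.14, adjusted p = 0.459 in edgeR), at -0.71 to -0.62 with a library left out. The epsilon subunit of the rotor, hpo-18, differed in the other direction, at 333 and 535 CPM in wild-type against 716 and 732 CPM in the mutant. Its log2 fold change was 0.71 (SE 0.22, interval at 95% confidence 0.25 to 1.18, adjusted p = 0.264 in edgeR), and it was 0.45 without wild-type library 1 and 1.11 without wild-type library 2. The other rotor subunits in F1, gamma (Y69A2AR.18) and delta (F58F12.1), had log2 fold changes of -0.0071 and 0.029, and the c ring row Y82E9BR.3, where the rotor meets the proton channel, 0.076. None of the 15 rows passed the false discovery rate in the fit without a replicate block, and hpo-18 passed it in the fit with one (adjusted p = 0.00833 in edgeR). Whether replicate numbers pair the libraries was not given in the sources used here.

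**Figure D4:**
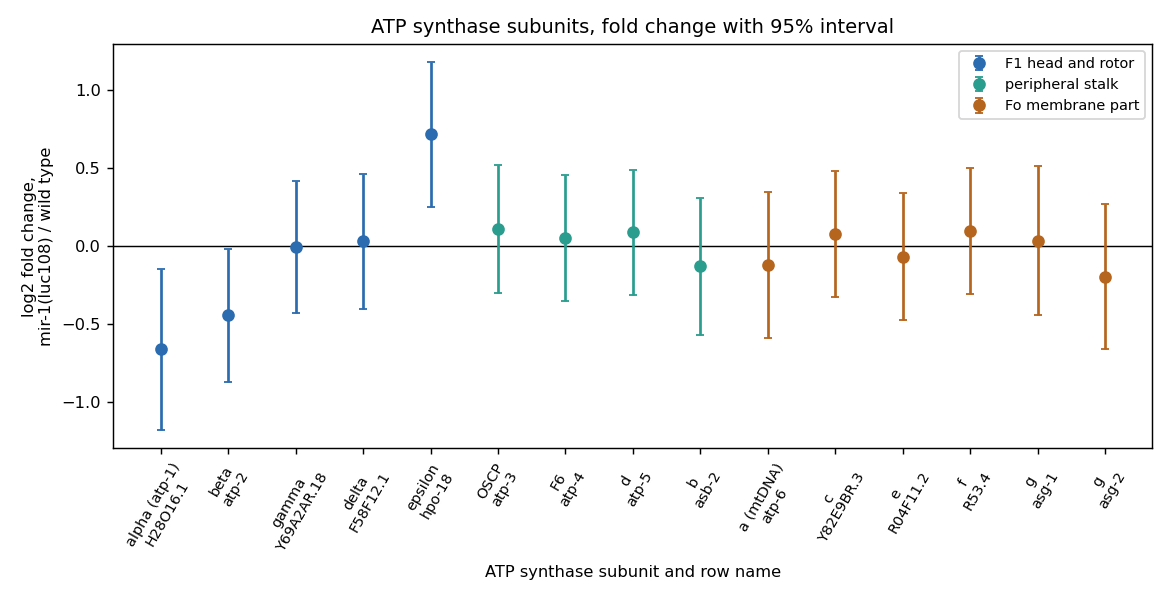
Log2 fold change, mir-1(luc108) over wild-type, of the 15 tested ATP synthase rows by subunit, with bars for the 95% confidence interval from edgeR, coloured by F1, peripheral stalk and Fo. Alpha (-0.66) and beta (-0.44) lie below 0 and epsilon (0.71) above it, and the 12 other intervals include 0.

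Pathways that feed the chain or use its product were described in the same way. The TCA cycle, which supplies NADH and succinate, had 2 of 14 tested genes above 0 and 12 below, a median log2 fold change of -0.17, and 0 called. Its summed level was 2856 and 2851 CPM in wild-type and 2520 and 2551 CPM in mir-1(luc108), without overlap, and p = 0.333 in the exact permutation test is the smallest that 2 against 2 allows. aco-2, the most abundant gene of that list, had means of 1142 CPM in wild-type and 973 CPM in mir-1(luc108). Glycolysis had 8 of 14 above 0 with a median of 0.058, and the mitochondrial ribosome 23 of 53 with a median of -0.017, with 0 called in each. The summed levels of these lists overlapped between the genotypes. The V-ATPase, a rotary pump related in structure to the ATP synthase that spends ATP to acidify organelles, had 14 of 18 above 0 with a median of 0.23 and 0 called. Like that of the TCA cycle, its summed level did not overlap. It was at 5029 and 5758 CPM in wild-type and 5994 and 7235 CPM in mir-1(luc108), with p = 0.333 in the exact permutation test. ant-1.1, the carrier that exchanges ADP and ATP across the inner membrane, had a log2 fold change of -0.19 (adjusted p = 0.885 in edgeR).

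Transcript length moved with the values in these libraries. Among all genes with an annotated length, those with a longest transcript under 1000 bases had a median log2 fold change of 0.11, and longer ones -0.049. For the nuclear respiratory chain and ATP synthase genes tested, 6 of 8 short ones were above 0 with a median of 0.072, against 5 of 10 longer ones with a median of -0.089. nuo-5 and atp-2 are on the long side, with transcripts of 2444 and 1929 bases, and cox-17 is the shortest, at 321 bases. Outside the rule, hpo-18, the highest ATP synthase row by log2 fold change, is at 290 bases, and nduf-5, which was lower, at 434. The TCA cycle genes tested are all on the long side, from 1240 bases for sucl-1 upward. The part of length in these values was not tested. The 3′UTRs of the 20 nuclear genes were short, from 99 to 578 bases with a median of 170, and 15 of the 20 have a protein-coding neighbour on the same strand within 1000 bases. Matches to the miR-1 seed were not searched for here.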

How the data were processed

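Per the labels and the study's methods, the authors extracted UMIs and removed duplicates with UMI-tools, mapped to WBcel235 with STAR and counted genes with HTSeq. The deposited values are UMI counts per gene, not normalized. Versions and strand setting were not given in the sources used here.

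Genes kept by filterByExpr (minimum count 10, 5111 of 14463 rows) were tested with edgeR 4.0.16 (R 4.3.3) by the quasi-likelihood test with TMM factors of 0.977 to 1.04 and genotype as the only term. p-values were adjusted by Benjamini-Hochberg over all 5111 genes, with a threshold of 0.05. DESeq2 1.42.0 was an alternative, beside other scalings, filters, a replicate block and leaving out each library. All rule members are named, and 1 result is not reported here. Members and lists were chosen with earlier results of these data known. Of the rows, 14209 matched an Ensembl release 115 or RefSeq gene. The study describes the libraries as biological duplicates. The p-values rest on the spread between these libraries, with each gene's spread moderated by that of the other genes. Libraries did not group clearly by genotype. Correlations of log2 CPM across genotypes ran from 0.902 to 0.943, against 0.927 between the wild-type libraries and 0.935 between the mutant ones. Tested on simulated counts with 200 changed genes, edgeR recovered 0 at 1.3-fold, 57 at 2-fold and 169 at 4-fold, over 5107, 5086 and 5035 genes, with 0, 0 and 15 false calls. The simulation gave every gene the same biological coefficient of variation, 14.7%, and took changed genes only from rows above a minimum total count. These recoveries therefore need not hold for the real counts, where spread differs between genes.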

Additional observations from a re-analysis of the deposited data

How the results depend on the processing

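The count of respiratory chain and ATP synthase genes called was 0 under every alternative run: other scaling factors, no filter, a minimum count of 30, DESeq2, a replicate block, mitochondrially encoded rows left out, current gene names (added after the data were seen) and each library left out. Over the whole table the calls ran from 0 with DESeq2 to 87 with the replicate block, against 3, and were 5 with DESeq2 size factors, 2 with total counts, 63 with no filter, 20 with a minimum count of 30, 5 without the mitochondrially encoded rows and 0 to 66 with a library left out. Deviations of same-numbered libraries of the genotypes had a correlation of 0.013 over 5111 genes. Many of these genes have low counts, so this value cannot decide whether replicate numbers pair the libraries. With the replicate block nuo-5 was at -0.70 (adjusted p = 0.0561 in edgeR) and atp-2 at -0.45, and hpo-18, no member of the rule, was called (adjusted p = 0.00833).

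With each library left out, genes below 0 ranged from 4 to 11 and the median log2 fold change of all genes of the rule from -0.17 to 0.084. The median of complex I ranged from -0.61 to 0.25, of complex III from -0.026 to 0.15, of the 2 tested complex IV assembly factors from -0.13 to 0.84 and of the ATP synthase from -0.046 to 0.077. The log2 ratio of summed CPM ranged from -0.075 to 0.92 for complex IV assembly and from -0.21 to 0.048 for the ATP synthase. Direction changed for mev-1 (-0.30 to 0.027), atp-6 (-0.29 to 0.072), nuo-6 (-0.61 to 0.27), nuo-4 (-1.23 to 0.39), isp-1 (-0.089 to 0.29), cox-15 (-0.36 to 0.55), nuo-2 (-0.17 to 0.25), ucr-1 (-0.11 to 0.25) and atp-4 (-0.046 to 0.13). The cause was not tested. Where 1 library of a genotype was left, the spread came from the other genotype. Depth limits cox-10, cox-11 and nuo-4, at 1 to 13 UMIs per library.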
